A study of Homo sapiens with 6 samples.

Results

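EFS, CNTN5, CDH3 and FRAS1 are 4 adhesion-related genes whose RNA was close to 0 in LNCaP prostate cancer cells carrying a hairpin against RB. They were selected on these counts, which were near 0 in all 3 RB-hairpin libraries, and they make up 4 of the 22279 rows of the count table, 1 row each. Their difference between the groups is therefore a description of what selected them, and it was not tested.

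LNCaP is an established human prostate cancer line of luminal type that depends on androgen. RNA was sequenced in 6 libraries, 3 from cells with the hairpin labelled shRB and 3 from cells with the control hairpin labelled shCON. Cells of both groups had spent 72 h in the treatment the labels call CDT, which the series places among hormone-deficient conditions, and no library from hormone-containing medium was analysed here. The labels name 1 hairpin per group and do not say whether the replicates were separate cultures, so RB loss, the particular hairpin and the particular cell population cannot be told apart, and the spread between replicates may be technical.

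The proteins act at different places of the cell surface. EFS (embryonal Fyn-associated substrate) is a cytoplasmic adaptor of the CAS family, which is phosphorylated by Src-family kinases and links them to focal adhesions and integrin signalling. CNTN5 (contactin 5) is a neural cell adhesion molecule of the immunoglobulin superfamily, held on the outer membrane by a lipid anchor. CDH3 (P-cadherin) is a classical cadherin that forms calcium-dependent contacts between cells and is a marker of basal cells in the prostate and other epithelia. FRAS1 is a very large extracellular matrix protein that works with the FREM proteins to hold epithelia to their basement membrane.

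The counted transcripts differ widely in size and setting in GENCODE release 29. EFS on chromosome 14 was counted as ENST00000216733, which has 6 exons and 3118 bases. CNTN5 on chromosome 11 was counted as ENST00000524871, which has 25 exons and 6258 bases from a gene that spans 1338 kb. CDH3 on chromosome 16 was counted as ENST00000429102, which has 16 exons and 3611 bases. FRAS1 on chromosome 4 was counted as ENST00000512123, which has 74 exons and 15624 bases. These transcripts hold 96.3% of the annotated exon bases of EFS, 68.7% of CNTN5, 57.9% of CDH3 and 82.4% of FRAS1. RNA of other isoforms may therefore be missing from the counts. The GC content of the 4 transcripts ran from 39.7% in CNTN5 to 62.5% in EFS, and EFS lies on the minus strand while the others lie on the plus strand. The genes thus lie on different chromosomes. Their transcripts range widely in length and base composition, but those of EFS and CDH3 are close in length. No 31-base word of the 4 transcripts, read in the sense direction, occurs in an annotated transcript of another gene, so no close copy was found with which reads would be shared. An antisense gene, AL049829.2, overlaps 9.14% of the EFS exon bases, and another, AC126773.2, overlaps 14.9% of those of CDH3. Whether counting used strand is not given in these sources, and reads from those stretches cannot be assigned to 1 strand.

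The start regions of CNTN5 and FRAS1 are printed because they show the CpG content in front of genes whose RNA was almost absent in one group. They are the 250 bases before the RefSeq start on the plus strand of GRCh38.p14, 5′ to 3′, with every CpG in capitals. Gene order, distances and transcript structure in this text are also those of GRCh38.
CNTN5, chr11:99020699-99020948: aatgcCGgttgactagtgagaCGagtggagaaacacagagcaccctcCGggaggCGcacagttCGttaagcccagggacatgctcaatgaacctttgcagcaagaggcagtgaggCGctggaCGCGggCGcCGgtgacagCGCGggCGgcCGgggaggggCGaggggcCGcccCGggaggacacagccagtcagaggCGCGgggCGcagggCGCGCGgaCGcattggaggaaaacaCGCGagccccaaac
FRAS1, chr4:78057073-78057322: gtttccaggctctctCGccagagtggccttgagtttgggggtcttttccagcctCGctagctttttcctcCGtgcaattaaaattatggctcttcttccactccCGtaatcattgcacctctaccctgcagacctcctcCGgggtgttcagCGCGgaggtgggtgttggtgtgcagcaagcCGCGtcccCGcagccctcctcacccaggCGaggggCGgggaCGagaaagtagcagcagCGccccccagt
The CNTN5 stretch holds 26 CpGs and the FRAS1 stretch 14, and in both most lie in the part nearer to the start. RefSeq windows that also include the first 50 bases of the transcript matched 3 of the 4 genes. In that window of 300 bases CNTN5 had 30 CpGs, a GC content of 66.0% and an observed-to-expected CpG ratio of 0.93, a ratio reached by 16.5% of the 27305 promoters in the table. EFS had 33 CpGs, a GC content of 73.7% and a ratio of 0.82, reached by 30.6% of promoters. All 300 bases of the EFS window lie in an exon of the counted EFS transcript, so it is transcribed sequence there and its letters are not shown. FRAS1 had 16 CpGs, a GC content of 60% and a ratio of 0.60, reached by 49.2%. The median promoter had 14 CpGs, a GC content of 58.3% and a ratio of 0.58, so CNTN5 and EFS lay in the CpG-rich part of the distribution and FRAS1 at its middle. Of the 18 tested genes left with at most 5% of their control level, which include these, 16 matched a window, with a median of 25.5 CpGs and a ratio of 0.785. No median was taken over the tested genes alone, and the promoters above include genes that were not tested. The CpG content is therefore not read as a trait of the genes that fell. The start of the counted transcript lies 241 bases downstream of the RefSeq start for CNTN5, 247 bases downstream for FRAS1 and 461 bases upstream for EFS, so the window may not be the start used in these cells. DNA methylation and chromatin were not analysed here.

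Short motifs were searched on both strands of the 300-base windows and are descriptions of letters only. The GC box GGGCGG occurred 3 times in EFS, 2 times in CNTN5 and 1 time in FRAS1, and 44.6% of all promoters hold it. CCAAT occurred 2 times in CNTN5 and in neither of the other windows, and 35.7% of all promoters hold it. The E2F-type words TTTGGCGC and TTTCCCGC, which stand in 0.659% and 1.66% of promoters, the E-box CACCTG (20.6%) and TATAAA (12.0%) were not found in these 3 windows.

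**Figure D1:**
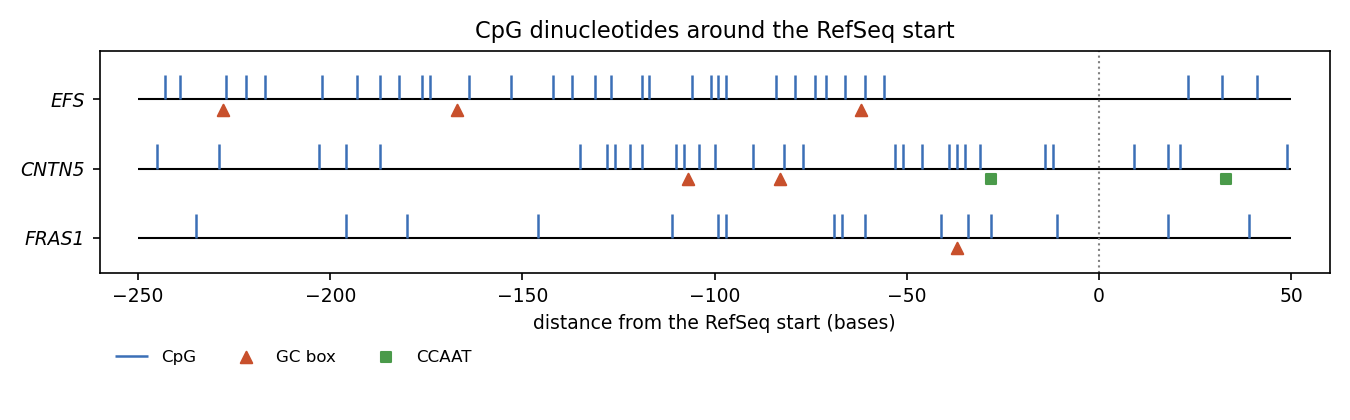
Position of each CpG (vertical marks) in the 300-base RefSeq promoter windows of EFS, CNTN5 and FRAS1, by distance in bases from the annotated start, with GC boxes as triangles and CCAAT as squares. The 33, 30 and 16 marks show the denser windows of EFS and CNTN5 beside that of FRAS1.

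Libraries differed in depth and 1 stood apart. Total counts ran from 6115310 to 20091488, which makes 1 count worth 0.049 to 0.163 CPM (counts relative to the library total after TMM adjustment). A library at 0 counts allows up to 3 counts, which is 0.147 to 0.49 CPM. Library shRB 2 differed from the other shRB libraries by 10.8 and 10.9 times what sampling noise gives (a chi-square over genes divided by its degrees of freedom), against 2.25 for the third shRB pair and 2.17 to 5.61 among shCON libraries. Counts of calls that move without it, and the neighbours and list genes whose call changes without it, are given where they are described. The label was checked on RB1, the targeted gene, which had 1153, 525 and 335 counts in shCON and 64, 36 and 56 in shRB.

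EFS had the lowest share of its control level left among the 4. It had 517, 279 and 161 counts in shCON 1 to 3 and 2, 0 and 3 counts in shRB 1 to 3. At a mean of 26.5 ± 1.34 CPM (SD, n = 3) in shCON, the 3 shRB libraries would together hold 807.5 counts, and they held 5. The RNA left was 0.619% of the control level, with exact 95% binomial limits of 0.201% and 1.45%, which is a level 161.5-fold lower (limits 69.0 and 498.5). The control libraries were close to each other, with a coefficient of variation of 5.06%, and every one of them lay far above every shRB library. The limits, here and for the other genes, cover counting error only.

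FRAS1 was next, at the lowest control level of the 4. It had 116, 75 and 32 counts in shCON and 0, 1 and 1 in shRB. Its control mean of 6.15 ± 1.22 CPM (SD, n = 3) would have given 188.2 counts in shRB, and 2 were found. The share left was 1.06% (exact limits 0.128% and 3.89%). No shRB library of FRAS1 reached 3 counts, the limit that a count of 0 allows, so its level in single shRB libraries was at or under what this depth can measure.

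CDH3 had 166, 76 and 43 counts in shCON and 4, 1 and 1 in shRB. Its control level was 7.60 ± 0.562 CPM (SD, n = 3), which would have given 240.5 counts in shRB against 6 found. The share left was 2.50% (exact limits 0.908% and 5.50%), and 4 of those 6 counts came from shRB 1. Without shRB 1 the share was 1.29%.

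CNTN5 kept the most RNA. It had 826, 312 and 217 counts in shCON and 10, 18 and 22 in shRB, all above 3 counts, so a residual level could be measured in each library. Its shCON level was 35.8 ± 4.61 CPM and its shRB level 1.65 ± 0.648 CPM (SD, n = 3 each). The share left was 4.37% (exact limits 3.23% and 5.80%), a level 22.9-fold lower (limits 17.2 and 30.97). These limits lie wholly above those of EFS. They overlap those of CDH3 and of FRAS1, and those of EFS overlap the limits of both as well, so no order is read among those neighbours.

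**Figure D2:**
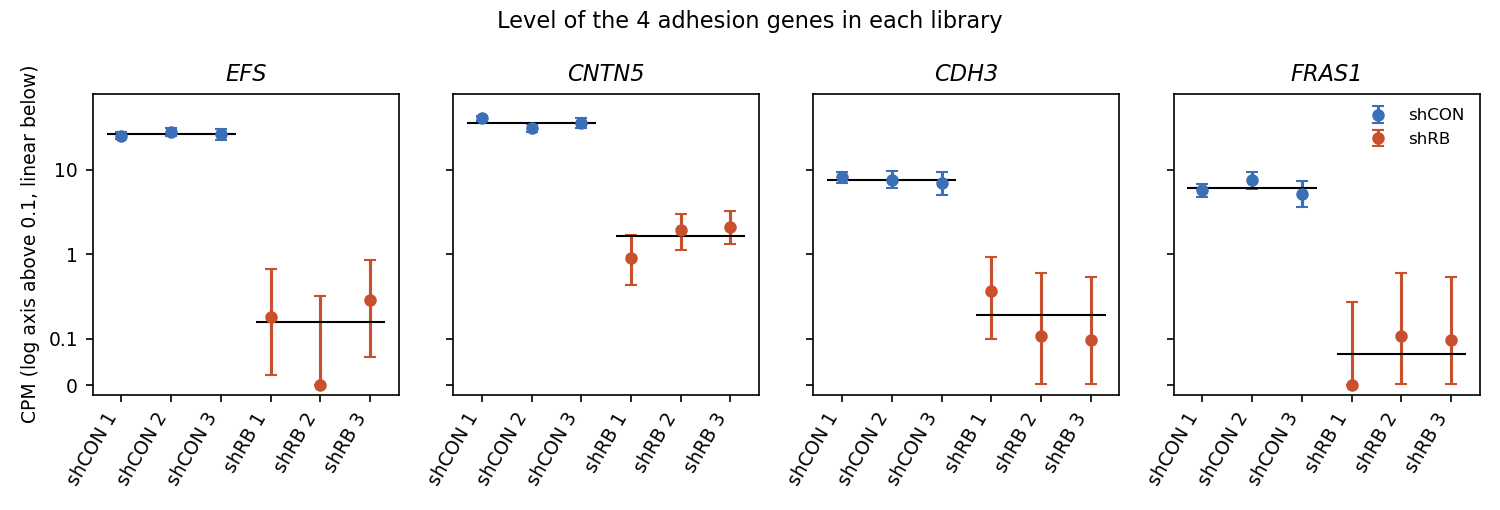
Level of each gene in each of the 6 libraries in CPM (log axis above 0.1, linear below). Points are libraries coloured by group, error bars are exact 95% Poisson intervals of the counts (at 0 counts, up to 3 counts) and black lines are group means. For each gene the 3 shCON points lie above the 3 shRB points, with EFS from 25.4 CPM upward in shCON and at most 0.290 CPM in shRB.

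The share left moved with single libraries, most of all for CDH3. Leaving out each library in turn gave 0.373% to 0.893% for EFS, 3.69% to 5.44% for CNTN5, 1.29% to 3.13% for CDH3 and 0.766% to 1.65% for FRAS1. The lowest EFS value came without shRB 3, which held 3 of the 5 counts, and the highest FRAS1 value without shRB 1, the library at 0. Without shRB 2, the library that stood apart, the shares were 0.893% for EFS, 0.766% for FRAS1, 2.998% for CDH3 and 4.03% for CNTN5.

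Per kilobase of counted transcript, the control levels fell in the order EFS, CNTN5, CDH3 and FRAS1. EFS stood at 8.51 ± 0.431 CPM per kb and CNTN5 at 5.71 ± 0.736 CPM per kb. CDH3 stood at 2.10 ± 0.156 CPM per kb and FRAS1 at 0.393 ± 0.0780 CPM per kb (SD, n = 3 each). The library ranges of neighbours in that order did not overlap, with 8.13 to 8.98 CPM per kb for EFS beside 5.004 to 6.47 for CNTN5, and 1.94 to 2.25 for CDH3 beside 0.334 to 0.482 for FRAS1. In shRB, CNTN5 was the highest at 0.263 ± 0.104 CPM per kb. EFS at 0.0504 ± 0.0470 and CDH3 at 0.0523 ± 0.0420 CPM per kb were within their spread of each other.

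Fitted log2 fold changes (shRB minus shCON, edgeR) were −7.26 ± 0.28 (SE) for EFS, −6.34 ± 0.44 for FRAS1, −5.23 ± 0.32 for CDH3 and −4.46 ± 0.21 for CNTN5. The SEs of EFS, FRAS1 and CDH3 are too small, since their shRB counts were near 0. Counting error alone gave fold limits of 69.0 and 498.5 for EFS and 25.7 and 781.7 for FRAS1. The log2 fold changes ranked 3, 6, 11 and 15 from the bottom of the 11712 tested genes. Of all tested genes, 12.5% were called lower and 12.8% higher in shRB at an adjusted p of 0.05. All shRB values were below all shCON values for 20.1% of tested genes, and for all 4 of these genes, which is what they were selected for. All 4 passed the filter on low counts through their shCON libraries alone. In bulk RNA a smaller number of cells with the transcript and less transcript per cell cannot be told apart.

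The depth of the fall is rare in these libraries. By the ratio of mean CPM, 18 of 11712 tested genes (0.154%) had at most 5% of the control level left, and 5 had at most 1%. The wider groups held 73 genes at most at 25% and 292 genes (2.49%) at most at 50%. The next gene above CNTN5 at 4.61% was CCNJ, a cyclin, at 4.70%, and just outside 5% stood OR51E2 at 5.31% and RGS2 at 6.10%. CNTN5 thus lies near that edge and EFS, at 0.592% by this ratio, far inside it.

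**Figure D3:**
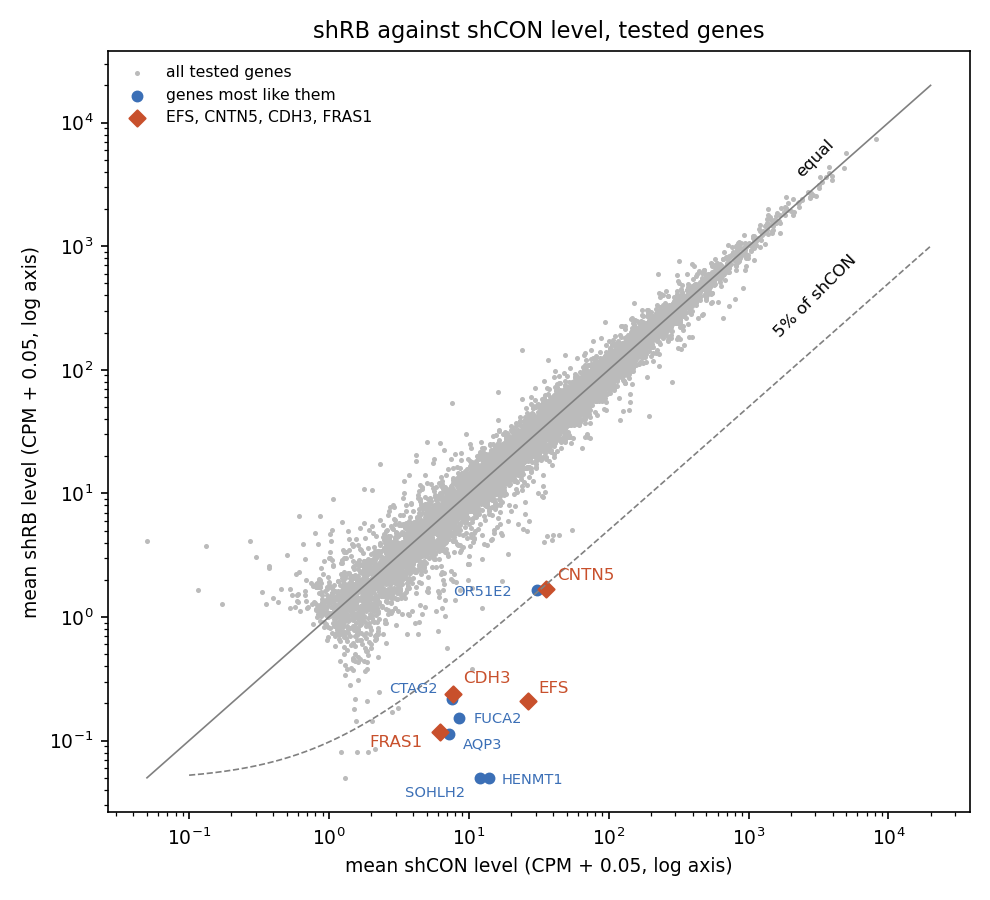
Mean CPM in shRB against mean CPM in shCON for the 11712 tested genes, both plus 0.05 on log axes, with the 4 genes (diamonds) and the genes most like them named. They lie in the sparse lower edge of the cloud, where 18 genes keep at most 5% of their control level.

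The genes most like each of the 4 were found by the root mean square difference over the 6 libraries of log2 CPM centred on the shCON mean (prior count 2). This measure reads mostly the size of the fall. For EFS they were HENMT1, an RNA methyltransferase, at 0.48, SOHLH2, a germ-cell transcription factor, at 0.50 and AQP3, a water and glycerol channel, at 1.07. HENMT1 had 544 counts in shCON and 0 in shRB, and SOHLH2 had 453 and 0. For CNTN5 they were CTAG2 (0.28), FRAS1 (0.36) and OR51E2 (0.47), and for FRAS1 they were CTAG2 (0.27), CNTN5 (0.36) and FUCA2 (0.45). For CDH3 they were OR51E2 (0.41), AQP3 (0.46) and CTAG2 (0.52). CTAG2, a cancer-testis antigen with 259 counts in shCON and 5 in shRB, has close relatives with which its reads may be shared, so its values are uncertain. CNTN5 and FRAS1 were thus among each other's 3 nearest genes, while EFS was farther from the other members, at 1.33 to 1.57. The likeness depends on depth: with the prior count, a gene of low control level cannot show as deep a fall as EFS.

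The genes around each of the 4 were read next, from the nearest 5 tested genes on each side in GENCODE order. Over all 40 neighbours, 6 were lower, 4 were higher and 30 did not pass (edgeR quasi-likelihood test, Benjamini-Hochberg adjustment). That is 15% lower and 10% higher, near the 12.5% and 12.8% of all tested genes, and the median log2 fold change was −0.06 beside −0.01 over all tested genes. Without shRB 2, 7 were lower and 7 higher. None of the 40 fell as far as the gene it was read beside. The 4 genes were selected on their shRB counts, so this was largely set in advance and does not show that the fall is local.

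Around EFS, 3 of 10 neighbours were lower, all on its left side, and none was higher. SLC22A17, which encodes a lipocalin receptor and lies 3.5 kb from EFS in GRCh38, fell from 69.6 ± 4.74 to 30.4 ± 4.32 CPM (SD, n = 3 each). Its libraries stood at 64.4, 73.7 and 70.7 CPM in shCON and at 29.1, 35.2 and 26.8 CPM in shRB, without overlap. The log2 fold change was −1.19 ± 0.11 (SE, adjusted p = 4.6e-06, edgeR). SLC7A8, an amino acid transporter, fell by 0.64 on the log2 scale (adjusted p = 0.00036, edgeR). BCL2L2, an anti-apoptotic gene, fell by 0.36 (adjusted p = 0.0077, edgeR), a call lost without shCON 3 (adjusted p = 0.0504), and 16.3% of its exon bases are shared with a readthrough gene. PPP1R3E and C14orf119 had log2 fold changes of 0.01 and 0.02 and did not pass. On the right side the 5 neighbours, NGDN, ZFHX2, THTPA, AP1G2 and AL135999.1, lay between −0.08 and 0.27 and did not pass. Without shRB 2, NGDN passed at 0.27 (adjusted p = 0.026, edgeR). AL135999.1 shares 83.3% of its exon bases with AP1G2 on the other strand, so with strand unknown their values are not separate readings. The 2 table genes next to EFS on that side, IL25 and CMTM5, had 3 and 0 counts in shCON and 0 in shRB.

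CNTN5 lies in a gene-poor stretch, with JRKL, its nearest tested neighbour on the left, 2513 kb away in GRCh38. Its 5 left neighbours, CEP57, MTMR2, MAML2, CCDC82 and JRKL, ranged from −0.71 to 0.13 on the log2 scale and did not pass. Without shRB 2, CEP57 was at 0.33 and passed (adjusted p = 0.0047, edgeR). On the right, 2 of 5 were lower. PGR, the progesterone receptor, lies 670.7 kb from CNTN5 in GRCh38, and ARHGAP42 lies 328.8 kb from it. PGR had 44, 13 and 12 counts in shCON and 2, 1 and 2 in shRB. The log2 fold change of PGR was −3.44 ± 0.45 (SE, adjusted p = 1e-04, edgeR). ARHGAP42 had 41, 23 and 14 counts in shCON and 13, 3 and 7 in shRB, a log2 fold change of −1.52 ± 0.35 (adjusted p = 0.0061, edgeR). AP001351.1 at −0.90 (adjusted p = 0.075) and CEP126 at −0.73 (adjusted p = 0.058) did not pass, nor did YAP1, the Hippo pathway coactivator, at −0.16 (adjusted p = 0.23, edgeR for all). The median over the 10 neighbours was −0.58, and −0.28 without shRB 2. It was −0.80 over the nearest 3 on each side and −0.16 over the nearest 10. Farther out, within the nearest 10 on each side, BIRC3, an apoptosis inhibitor, at −1.18 (adjusted p = 0.0033) and CWC15, a splicing factor, at −0.37 (adjusted p = 0.0076) were lower, and MMP7, a matrix metalloproteinase, at 2.45 (adjusted p = 0.0037, edgeR for all) was higher. PGR, ARHGAP42 and AP001351.1 passed the filter on low counts through their shCON libraries, where they were higher. MMP7 passed it only through its shRB libraries, where it was high. PGR and ARHGAP42 rest on few counts, so their SEs may be too small. AP001351.1 shares 9.7% of its exon bases with ARHGAP42 on the other strand.

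CDH3 lies next to its paralog CDH1, which encodes E-cadherin, the main cadherin of epithelial cells, at a level that overlapped between the groups. CDH1 had 14401, 7388 and 4409 counts in shCON and 7012, 6703 and 6885 in shRB. Its mean was 722.5 ± 17.8 CPM in the control group and 671.1 ± 36.7 CPM in the other (SD, n = 3 each), with overlapping libraries. The log2 fold change of −0.11 ± 0.07 (SE) did not pass (adjusted p = 0.30, edgeR). The 2 genes lie 14.6 kb apart in GRCh38. None of the 10 neighbours of CDH3 was lower and 4 were higher. These were PRMT7, an arginine methyltransferase, at 0.43 (adjusted p = 0.0058), CHTF8 at 0.35 (adjusted p = 0.0061), UTP4 at 0.39 (adjusted p = 0.0063) and HAS3, a hyaluronan synthase, at 0.36 (adjusted p = 0.034, edgeR for all). The HAS3 call was lost without shCON 1, shCON 3, shRB 1 or shRB 3, and 31.4% of its exon bases overlap CHTF8 on the other strand. PLA2G15, SLC7A6, SMPD3, ZFP90 and TANGO6 ranged from −0.24 to 0.01 and did not pass, but without shRB 2, SLC7A6 passed at −0.25 (adjusted p = 0.028, edgeR).

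Around FRAS1, 1 of 10 neighbours was lower and none was higher. ANTXR2, an anthrax toxin receptor that binds basement membrane proteins, lies 1356.9 kb from FRAS1 in GRCh38. ANTXR2 had 197, 87 and 63 counts in shCON and 77, 41 and 63 in shRB. It fell from 9.56 ± 0.781 to 5.81 ± 1.35 CPM (SD, n = 3 each), a log2 fold change of −0.70 ± 0.17 (SE, adjusted p = 0.0095, edgeR). SEPT11, CCNI, CCNG2, CNOT6L and MRPL1 on the left ranged from −0.07 to 0.24, and BMP2K, PAQR3, PRKG2 and ENOPH1 on the right from −0.35 to −0.05, and none of these passed. Without shRB 2, SEPT11 was at 0.36 and passed (adjusted p = 5.8e-06, edgeR). ANXA3, the table gene next to FRAS1 at 7.2 kb, had 1 count in each group.

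**Figure D4:**
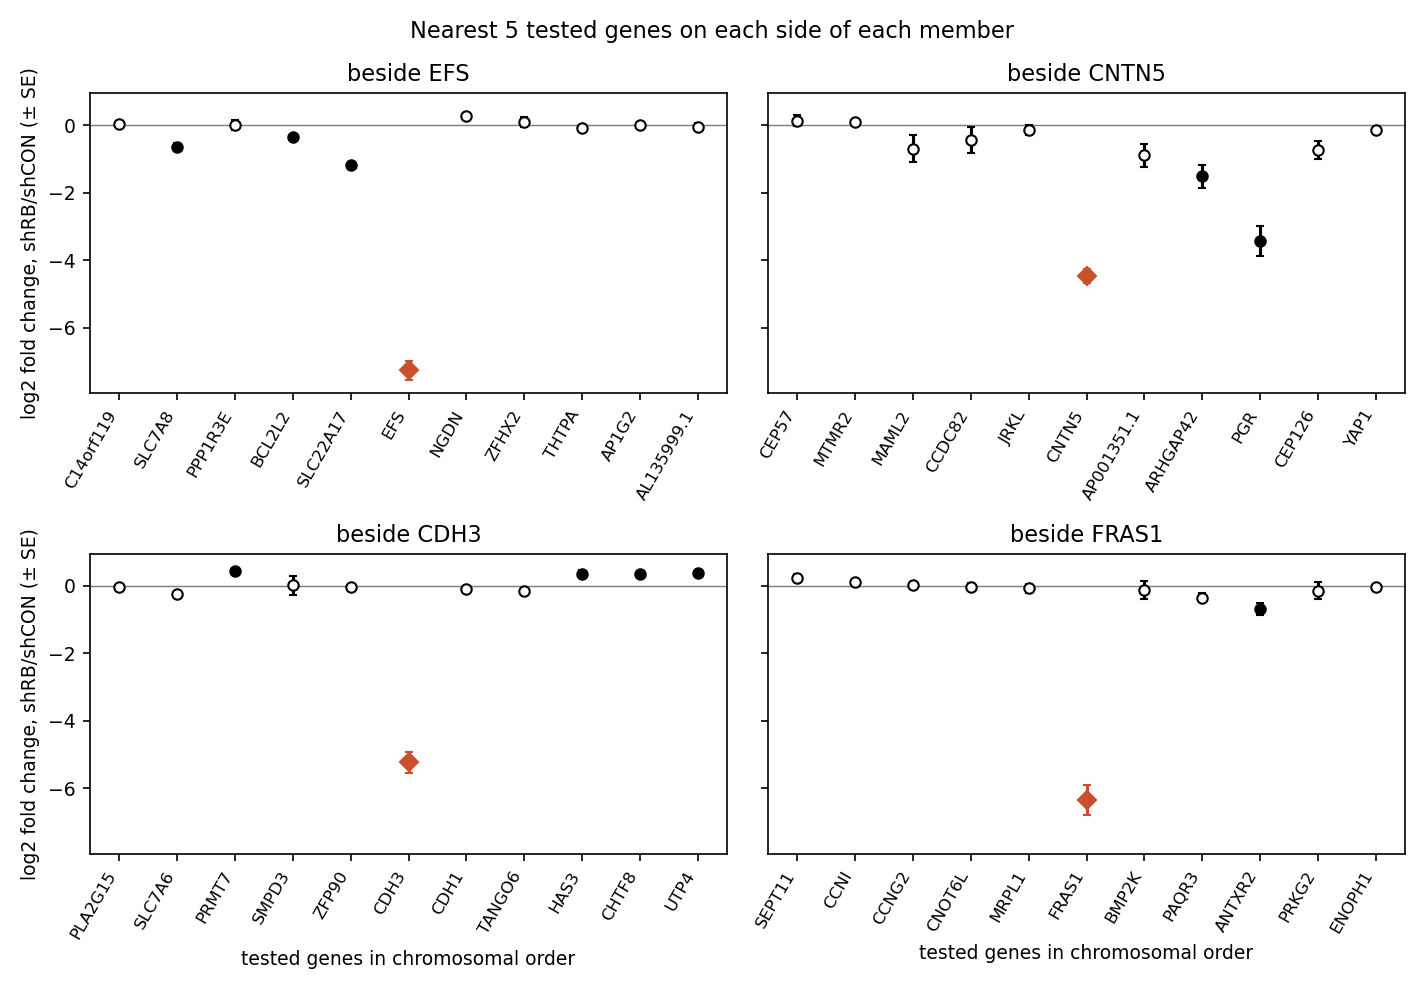
Log2 fold change (shRB minus shCON) of each of the 4 genes and of the nearest 5 tested genes on each side, in gene order, with error bars of 1 SE and filled marks for genes past an adjusted p of 0.05. The bars are too short for genes with shRB counts near 0. The 4 genes, selected on their shRB counts, reach −4.46 to −7.26, and their neighbours lie between −3.44 (PGR) and 0.43 (PRMT7).

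The families and partners of the 4 genes were read from 5 lists. Of 80 tested genes on them, 11 were lower, 7 were higher and 62 did not pass, with a median log2 fold change of −0.05. That is 13.8% lower and 8.8% higher, beside 12.5% and 12.8% of all tested genes. The count of lower genes was 5 without shCON 1 and 15 without shRB 2, and that of higher genes was 11 without shRB 2.

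In CAS adaptor signalling, 1 of 20 tested genes was lower, 3 were higher and 16 did not pass, with a median of −0.06. Among the relatives of EFS, NEDD9 fell from 19.9 ± 2.35 to 13.2 ± 0.173 CPM (SD, n = 3 each; log2 fold change −0.59 ± 0.12, SE; adjusted p = 0.0035, edgeR). BCAR1, also called p130Cas, stood at 86.3 ± 2.84 and 99.9 ± 7.57 CPM and did not pass (adjusted p = 0.069, edgeR). CASS4 had 1 count in shCON and 0 in shRB. SH2D3A, a CAS-binding adaptor, rose from 0.448 ± 0.229 to 3.12 ± 0.228 CPM, a log2 fold change of 2.8 (adjusted p = 3.2e-05, edgeR) on 16 and 96 counts. It passed the filter on low counts only through its shRB libraries, where it was high. PIK3R1, a regulatory subunit of PI3-kinase, rose by 0.77 (adjusted p = 0.001), and CRKL, an adaptor that binds phosphorylated CAS proteins, by 0.33 (adjusted p = 0.011, edgeR; lost without shCON 1 or shCON 3). Without shRB 2 the kinase ABL1 was also called higher, at 0.20.

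Among cadherins and catenins, 2 of 12 tested genes were lower, 1 was higher and 9 did not pass, with a median of −0.03. The lower genes were catenins that bind the cytoplasmic tail of cadherins or link it to actin. CTNND1, p120 catenin, had 283.2 ± 4.50 CPM in shCON and 233.5 ± 18.5 in shRB (SD, n = 3 each; log2 fold change −0.28, adjusted p = 0.016, edgeR; lost without shCON 1 or shCON 3). CTNNA1, alpha-catenin, fell by 0.20 (adjusted p = 0.043, edgeR), a call lost without any 1 of the shCON libraries, without shRB 1 or shRB 3, and with no filter on low counts. CDH18 rose by 1.44 (adjusted p = 0.015, edgeR) on 17 and 39 counts, a call lost with DESeq2, without shCON 2 and without shRB 3. It passed the filter on low counts only through its shRB libraries, where it was high. CDH2, N-cadherin, had 1 count in shCON and 5 in shRB, and 5 genes of the list were at 0 in every library.

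Among contactins and their partners, 2 of 11 tested genes were lower, 1 was higher and 8 did not pass, with a median of −0.10. Of the other contactins, none passed. CNTN4 had 3.60 ± 0.330 CPM in shCON and 3.75 ± 1.05 in shRB (SD, n = 3 each; log2 fold change 0.04, adjusted p = 0.92, edgeR). CNTN1, CNTN3 and CNTN6 had 0 counts in every library, and CNTN2 at −0.39 did not pass (adjusted p = 0.38, edgeR). CNTNAP2, a neurexin-family membrane protein, rose from 4.57 ± 0.592 to 7.77 ± 0.921 CPM (log2 fold change 0.81, adjusted p = 0.0034, edgeR). NCAM2, a neural cell adhesion molecule, fell by 0.38 (adjusted p = 0.018, lost without shCON 1 or shCON 3), and APLP2, a relative of the amyloid precursor protein, fell by 0.25 (adjusted p = 0.019, edgeR; lost without any 1 of the shCON libraries).

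In the FRAS/FREM and basement membrane list, 2 of 14 tested genes were lower, 1 was higher and 11 did not pass, with a median of −0.15. FREM1 had 15 counts in shCON and 9 in shRB, FREM3 had 2 and 0, and FREM2 was at 0 in every library. GRIP1, the scaffold that carries FRAS1 and FREM proteins to the membrane, had 29 and 22 counts. NPNT, nephronectin, a basement membrane ligand of integrins that did not pass the filter on low counts over all 6 libraries, had 36, 16 and 4 counts in shCON and 0, 1 and 5 in shRB. Its level was 1.34 ± 0.602 CPM in the control group and 0.196 ± 0.254 CPM in the other (SD, n = 3 each), without overlap. The closest libraries were shCON 3 at 0.653 CPM on 4 counts and shRB 3 at 0.483 CPM on 5 counts. COL4A5, a chain of basement membrane collagen, fell from 88.6 ± 1.69 to 59.8 ± 4.25 CPM (SD, n = 3 each; log2 fold change −0.57, adjusted p = 0.00021, edgeR). ITGA6, a laminin-binding integrin subunit, fell by 0.45 (adjusted p = 0.012, edgeR; lost without shCON 1). COL7A1, the collagen of anchoring fibrils, rose from 2.14 ± 0.295 to 4.51 ± 1.2 CPM (adjusted p = 0.0069, edgeR). Without shRB 2, 6 genes of this list were lower and 2 were higher. The laminin chains LAMA5 (−0.30) and LAMB1 (−0.69), the proteoglycan AGRN (−0.25) and NPNT joined the lower ones. The laminin receptor DAG1 (0.17) joined the higher ones. NPNT was then tested, at −2.63 (adjusted p = 3e-04, edgeR). It passed the filter there only through its shCON libraries, where it was high.

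Among desmosomes, tight junctions and nectins, 4 of 23 tested genes were lower, 1 was higher and 18 did not pass, with a median of 0.03. The desmosomal genes moved in both directions. DSC2 fell from 314.7 ± 20.6 to 183.3 ± 18.7 CPM (SD, n = 3 each; log2 fold change −0.78 ± 0.09, SE; adjusted p = 2.7e-05, edgeR), and its paralog DSC3 rose from 24.1 ± 3.65 to 58.3 ± 8.49 CPM (1.29 ± 0.13; adjusted p = 1.2e-05). Both encode desmocollins, the adhesive cadherins of desmosomes. DSG2, a desmoglein, fell from 264.2 ± 20.9 to 171.4 ± 41.2 CPM (adjusted p = 0.0046, edgeR). DSP, desmoplakin, fell by 0.54 (adjusted p = 0.0048, edgeR). CLDN8, a claudin, fell by 0.54 (adjusted p = 0.035, edgeR), a call lost with DESeq2 and without shCON 1, shCON 3 or shRB 1. Without shRB 2, TJP1 (0.31) and CLDN12 (0.34), both of tight junctions, were called higher as well. The widest log2 fold change among the 80 genes was the 2.8 of SH2D3A, which was tested only through its shRB libraries. The deepest fall among these tested genes was that of DSC2.

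**Figure D5:**
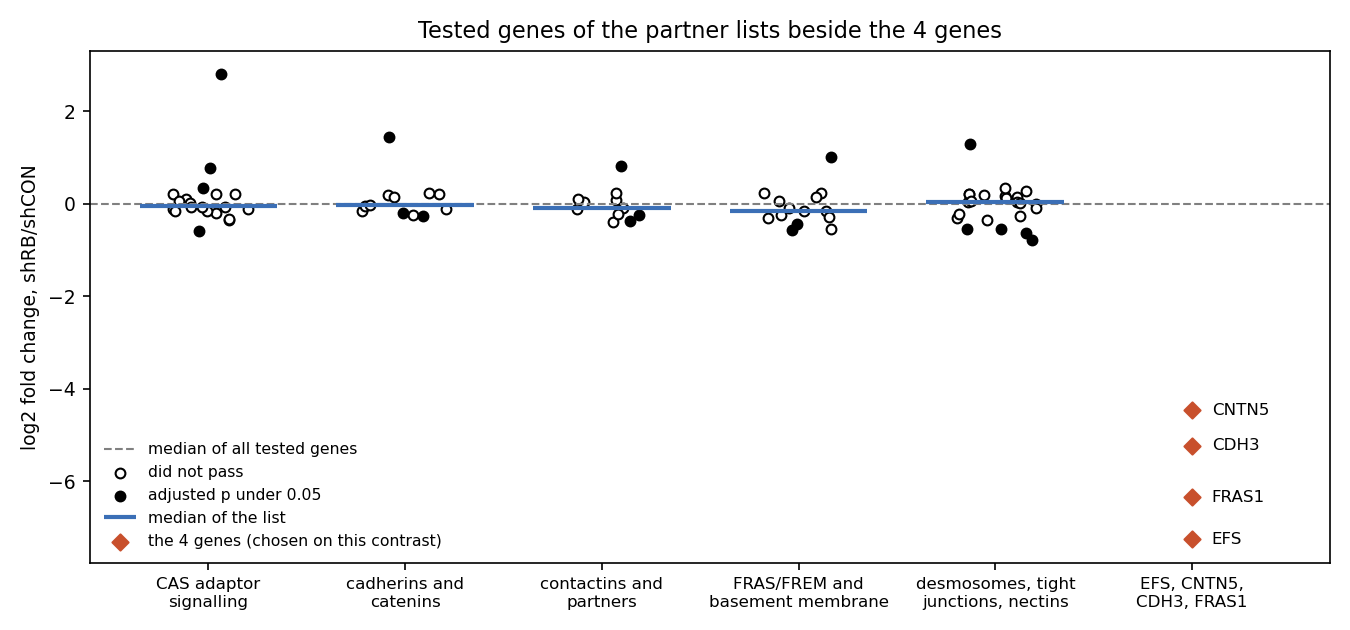
Log2 fold change (shRB minus shCON) of every tested gene on the 5 lists of families and partners, 1 point per gene, filled where the adjusted p is under 0.05, with the median of each list as a blue line, that of all tested genes dashed, and the 4 genes as diamonds. The medians lie between −0.15 and 0.03, and 62 of 80 genes did not pass.

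Markers of other cell types were read in all 6 libraries. Of 13 basal epithelial markers in the table, a cell type in which CDH3 is a marker, 1 was tested (TRIM29, log2 fold change −0.99, adjusted p = 0.029, edgeR). KRT5 and KRT6A were at 0 in every library, and TP63 had 0 counts in shCON and 1 in shRB. The summed level of these markers was 4.46 to 5.71 CPM in shCON and 2.99 to 3.55 CPM in shRB. KRT14 had 13, 3 and 3 counts in shCON and 0, 1 and 0 in shRB. Of 11 tested luminal prostate markers 2 were lower and 4 higher, and the list summed to 5224 to 5506 CPM in shCON and 4952 to 5257 in shRB. Of 6 tested mesenchymal markers 2 were lower (VIM at −1.55 and TWIST1 at −2.09) and 1 was higher (FN1 at 0.47). The list summed to 178.5 to 193.5 CPM in shCON and 194.5 to 219.8 in shRB. FN1 made up most of this sum, with a control mean of 130.0 CPM against 180.0 CPM under the RB hairpin. VIM went from a mean of 25.3 to 8.47 CPM and TWIST1 from 6.05 to 1.40 CPM. COL1A1 and COL3A1 had lower means and SNAI1 a higher one, and none of these passed. The higher sum therefore reflects FN1 and is not read as a rise of the list. Of 10 leukocyte and endothelial markers 6 were at 0 in every library, and their sum was 9.63 to 11.4 CPM in shCON and 2.28 to 4.03 in shRB. Most of that sum was VWF, the von Willebrand factor of endothelium, at 9.75 ± 1.39 CPM in the controls and 2.65 ± 0.998 CPM in the others (SD, n = 3 each; log2 fold change −1.93, adjusted p = 3.5e-05, edgeR). The part of these marker differences in the values of the 4 genes was not tested.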

How the data were processed

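RNA of 3 shCON and 3 shRB LNCaP libraries was analysed from the counts the authors deposited, raw whole-number read counts per transcript ID with no normalization. STAR, HOMER, edgeR and hg19 are named, per the submitters' processing notes, without versions or roles, and the annotation, strand use and counting options are not stated there. GENCODE 29 matched 22182 of 22279 IDs and served for names, gene order, lengths and overlaps, and RefSeq (GRCh38.p14) for promoters. Both describe another build than hg19, so distances and transcript structure are those of GRCh38.

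Genes were kept by filterByExpr (minimum count 10, minimum total 15), scaled by TMM and tested with edgeR 4.0.16 in R 4.3.3 (glmQLFit and glmQLFTest, group as the only term), with Benjamini-Hochberg adjustment over 11712 genes and a threshold of 0.05. The SE of a log2 fold change was derived from F, as its absolute value over √F, and is too small where 1 group is near 0 counts. Limits of shares are exact (Clopper-Pearson) at 95%, and counts come from reads without molecular identifiers. In simulated counts from 11613 genes the test recovered 90% of genes changed 2-fold and 24% of those changed 1.25-fold, and 11 of 154 calls were false.

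The 4 genes, the neighbour rule and the 9 gene lists were chosen with earlier results of these data known. Named genes were the 4, their paralogs, the nearest 5 tested and 2 table genes on each side, the 3 smallest p-values in each list and the 3 most alike genes. Exceptions, chosen after their values were seen, are CNTN2, GRIP1, KRT5, KRT6A, KRT14, TP63, CRKL, DSP, CLDN8, NPNT, BIRC3, CWC15, MMP7, CCNJ, RGS2 and the genes whose call changed without shRB 2. Alternatives were RLE, upper-quartile and total-count scaling, no filter, a filter of 1 CPM in 3 libraries, DESeq2 1.42.0, limma-voom (limma 3.58.1), a replicate block, a threshold of 0.01, other neighbour numbers, a prior count of 2 and leaving out each library.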

Additional observations from a re-analysis of the deposited data

How the results depend on the processing

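The 4 genes had negative log2 fold changes in each of 15 alternatives. CNTN5 ranged from −4.70 to −4.15. With limma-voom FRAS1 was at −5.91, and a prior count of 2 gave −6.29 for EFS, −4.40 for CDH3 and −4.70 for FRAS1; the higher prior pulls low counts toward the control level. Leaving out 1 library gave −7.93 to −6.75 for EFS, −6.10 to −4.92 for CDH3 and −6.73 to −5.78 for FRAS1. Of all tested genes, 1459 were lower and 1499 higher; at an adjusted p under 0.01 these were 793 and 787, and leaving out 1 library gave 912 to 1956 and 863 to 2074. Same-numbered libraries correlated at 0.235, 0.352 and 0, and differently numbered ones at −0.37 to 0.273. The highest of the latter, shCON 1 with shRB 3, lay above shCON 1 with shRB 1, so the numbers were not taken to pair the libraries. With the replicate block 2294 genes were lower and 2203 higher, 10 neighbours were lower, and 19 partner genes were lower and 17 higher. Without a filter 18 partner genes were lower, with a median of −0.09, and at the stricter threshold 5 were lower. Leaving out 1 library gave 5 to 15 lower and 6 to 11 higher partner genes and a median of −0.09 to 0.01. Neighbours called higher were 3 to 7 without 1 library, 2 with the nearest 3 per side and 7 with the nearest 10. Median log2 fold changes beside EFS, CNTN5 and CDH3 were −0.12 to 0.03, −0.77 to −0.28 and −0.07 to 0.09 without 1 library. With the nearest 3 the median beside CNTN5 was −0.80, and with the nearest 10 it was −0.16, and 0.04 beside CDH3. The cause of these shifts was not tested. Calls of single genes were followed for the nearest 5 tested neighbours per side and the tested partner-list genes. Of 28 that passed, 18 kept their call in all 14 alternatives and none changed sign. Of 91 that did not pass, 66 kept theirs and 26 changed sign in at least 1. TRIM29, VWF, BIRC3, CWC15, MMP7 and the other named genes outside these sets were not followed in this way. At these totals 1 to 3 counts decide the shRB level of EFS, CDH3 and FRAS1.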
